A study of Sus scrofa with 3 samples.

Results

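A2M, SERPINA1, WFDC1 and AMBP, 4 genes of secreted proteins that restrain or resemble inhibitors of proteases, were examined in the tooth germs of miniature pigs on embryonic days E40, E50 and E60. They were chosen by their log2 signals on these same 3 arrays, for being higher at the later stages, so their differences are given as a description, without a test. Of 6765 genes named on the array, these are 4, and they are read by 7 of the 23999 probe sets analysed. The pigs were Wuzhishan miniature pigs, and the tissue was the germ of the last deciduous molar of the mandible (Dm3) with its dental lamina. At each age the germs of 1 litter were pooled and their RNA was measured on 1 Affymetrix Porcine Genome Array. The Dm3 was in the cap stage on E40, without a successional dental lamina, and in the bell stage on E50, when that lamina first appears. On E60 it was in the secretory stage according to the labels, and in the late bell stage according to the methods of the study.

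Many proteases work in the tissue around cells, and secreted inhibitors limit where and how long they act. A2M encodes alpha-2-macroglobulin, which traps proteases of every class after they cut a bait region in it. SERPINA1 encodes alpha-1-antitrypsin, a serpin best known for inactivating neutrophil elastase, and AMBP encodes a precursor that is cut into alpha-1-microglobulin and bikunin, a Kunitz-type inhibitor of trypsin-like proteases. WFDC1 encodes a secreted protein with a WAP domain, the fold of the elastase inhibitors SLPI and elafin. The liver is the main source of A2M, SERPINA1 and AMBP in the adult human, from where their products reach the blood. In forming enamel, proteases are part of normal development: MMP20 cleaves the enamel matrix proteins during secretion, and KLK4 removes them during maturation.

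Signals are MAS 5.0 values as the authors computed them, and the arrays stand at nearly the same trimmed mean. Signals at the dim end of each array were taken as too dim to measure. This floor, the 25th percentile, lay at 29.3 for E40, 17.2 for E50 and 21.8 for E60. Fold differences against a dim signal are lower bounds and are written "at least". Calls of higher or lower took a difference of over 2-fold between 2 arrays. Since each stage had 1 array, neither a replicate spread nor a p-value can be given, and every difference compares single pools. In whole tissue, fewer cells of a type and less RNA per cell cannot be told apart. The summed signals of skeletal muscle genes and of keratinised epithelium genes were higher in the E40 pool than in the later pools. Across E40, E50 and E60, the summed signal of 13 muscle genes was 40338.6, 929.7 and 3627. That of 4 genes of keratinised epithelium was 6366, 1845 and 2341. Values are given in this order of stages wherever 3 stand together. The brightest muscle genes were MYL1 (7116, 481.2 and 3266), TNNT1, MYLPF and MYL2, and MYL1 gave most of the E60 sum. All 12 measurable muscle genes were lower on E50 than on E40, beside 8.14% of all named genes. On E60 versus E40 all 12 were lower too, beside 7.3%, and 11 of 12 with equal medians. Of the keratinised genes, IVL, involucrin, stood at 3255, 14.2 and 27.4 and CST6 at 1783, 109.1 and 32.4. KRT10 went the other way, at 1321, 1714 and 2276, and KRT1 was under the floor on all 3 arrays. The part of these tissues in the differences below was not tested.

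All 4 genes had at least 1 probe set that was higher by over 2-fold on E60 than on E40, but they took different courses. A2M and WFDC1 each had 1 probe set that was higher by over 2-fold at both steps. SERPINA1 and AMBP were higher on E50 and then stood within 2-fold of that level on E60, with SERPINA1 slightly lower, so the signal of SERPINA1 and AMBP did not differ by over 2-fold after E50. Over the 7 probe sets, 4 of 6 with a measurable difference were called higher on E50 versus E40, where 2.6% of all tested probe sets were. On E60 versus E50 it was 3 of 7, with 6.37% of all tested, and on E60 versus E40 5 of 7, with 4.51% of all tested. None was called lower in any pair, where 15.6% of all tested probe sets were lower at the first step, 1.88% at the second and 12.6% over both. These counts follow from the way the genes were chosen. Of the 7 probe sets, 4 lay above the floor on all 3 arrays.

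**Figure D1:**
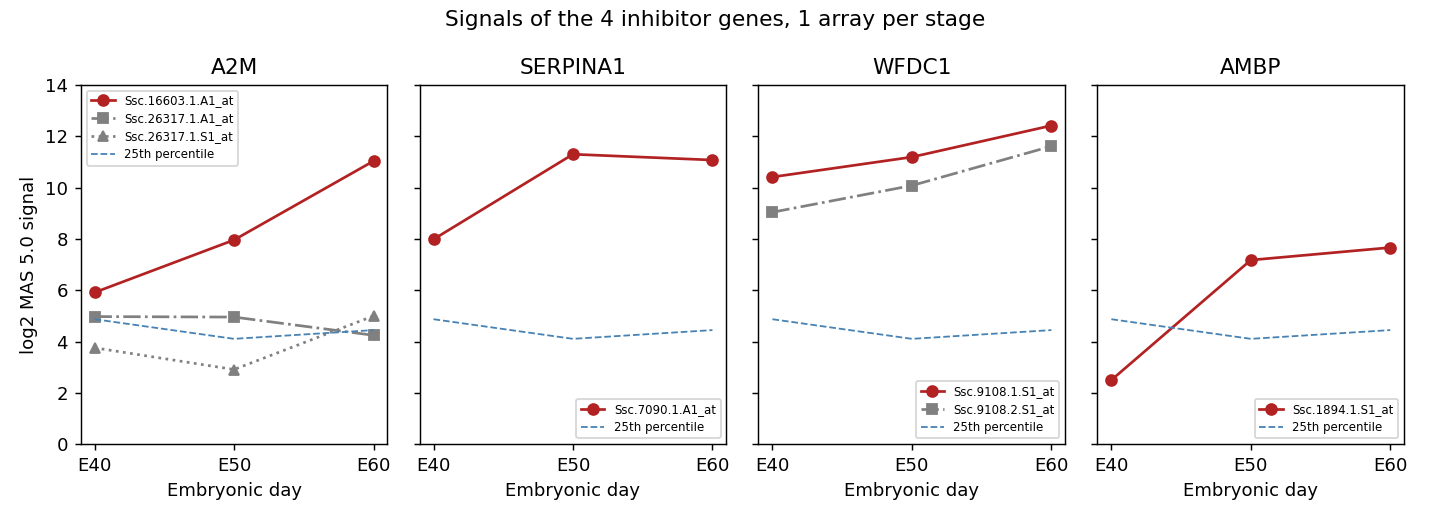
Log2 signal (vertical axis) of every probe set of A2M, SERPINA1, WFDC1 and AMBP by stage (horizontal axis, E40 to E60, 1 array a stage); each gene's brightest probe set is red, the others are grey, and dashes mark each array's 25th percentile. The brightest A2M probe set climbs at both steps to 2097 on E60, while its other probe sets stay near the percentile, and SERPINA1 levels off after E50.

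A2M had the widest measured difference of the 4, with AMBP known only as a bound. On its brightest probe set A2M gave a signal of 60.3 at E40, 249.0 at E50 and 2097 at E60. The E50 signal was 4.13-fold that of E40, the E60 signal was 8.42-fold that of E50, and the whole difference came to 34.8-fold. Among 6123 named genes with a difference on E60 versus E40, each on its brightest probe set, A2M ranked 8th from the top. The other A2M probe sets did not show this. The second, with the suffix A1_at, stood at 31.4, 31.0 and 19.0, the last under the floor. The third, with the suffix S1_at, stood at 13.5 and 7.52, both under the floor, and then at 31.98. On E60 versus E50 the second probe set was at least 1.42-fold lower and the third at least 1.86-fold higher. Both are derived from 1 sequence record, and why they stay dim was not tested. On E50 versus E40 the measured A2M probe sets lay 2.06 apart on the log2 scale, and 3.45% of the 1596 genes with at least 2 measured probe sets had as wide a gap. The A2M values therefore rest on 1 probe set of 3.

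SERPINA1 was read by 1 probe set, which stood at 253.3, 2519.9 and 2156. The E50 signal was 9.95-fold that of E40, the largest measured first step of the 4 genes, with AMBP again a bound. On E60 it was 1.17-fold lower than on E50 and 8.51-fold higher than on E40. In the pig genome SERPINA1 lies in a cluster of related serpin genes. Within 5 genes on either side of it in the reference annotation (Sscrofa11.1) are SERPINA6, SERPINA5, SERPINA11 and UABP-2, a serpin gene of the pig uterus. Of these, SERPINA6 stood at 14.04, 35.2 and 29.7, UABP-2 at 16.4, 19.8 and 12.9 and SERPINA5 at 17.6, 13.8 and 17.2, and none was called in any pair. SERPINA6, UABP-2 and SERPINA5 were dim on all 3 arrays, with no signal above 35.2, and SERPINA11 had no reading. Whether the SERPINA1 probes also read unnamed copies in the cluster was not tested.

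WFDC1 was higher at both steps on each of its probe sets, though not always by over 2-fold. The brighter stood at 1363, 2336 and 5464, and the dimmer at 526.5, 1082 and 3127. On E50 versus E40 the brighter was 1.71-fold higher, within the 2-fold limit, and the dimmer 2.06-fold higher, just past it. On E60 versus E50 they were 2.34-fold and 2.89-fold higher, and on E60 versus E40 4.01-fold and 5.94-fold higher. The gap between them was 0.26 on the log2 scale at the first step, 0.31 at the second and 0.57 over both. Of the 1596 genes with several measured probe sets, 604 (37.8%) had at least as wide a gap on E60 versus E40. The call at the first step depends on the scaling: with the arrays at equal medians the brighter probe set passed 2-fold as well (1.16 on the log2 scale), and with housekeeping scaling neither did (0.65 and 0.91). Of all probe sets tested at both steps, 42 (0.239%) were higher by over 2-fold each time, and the dimmer WFDC1 and the brightest A2M probe sets are 2 of them.

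AMBP was measurable on the later arrays only. Its 1 probe set had a signal of 5.66 on E40, under the floor, then 144.6 on E50 and 202.7 on E60. Against E40 it was at least 4.94-fold higher on E50 and at least 6.93-fold higher on E60. On E60 it was 1.40-fold higher than on E50, within the 2-fold limit. On the later arrays its signal stayed near the median of all probe sets, which was 125.0 on E50 and 132.0 on E60, so a floor at the median leaves a bound of only 0.31 on the log2 scale for E60 versus E40.

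Bikunin, the Kunitz part of the AMBP product, circulates bound to the heavy chains encoded by the ITIH genes, and TNFAIP6 passes these chains on to hyaluronan. No heavy chain gene was higher by over 2-fold on E50 or E60 than on E40. ITIH1 and ITIH3 were under the floor on all 3 arrays, as was TNFAIP6. ITIH2 stood at 20.4, 19.4 and 27.5. ITIH4 stood at 44.1, 11.4 and 55.0, under the floor on E50, where it was at least 2.56-fold lower than on E40. On E60 it was at least 3.19-fold higher than on E50, though with a common floor no gene of this group was higher at that step. ITIH5 stood at 294.1, 147.8 and 147.5, which is 1.99-fold lower on E50 than on E40. A hyaluronan synthase and a link protein were higher on the later arrays. HAPLN1, a link protein that fastens proteoglycans to hyaluronan, stood at 416.1, 3281 and 5119, and HAS3, a hyaluronan synthase, at 1514, 5923 and 4537. HAPLN1 was 7.89-fold and HAS3 3.91-fold higher on E50 than on E40. PTX3, which binds the heavy chains in the hyaluronan matrix around the mouse egg, stood at 1111, 706.8 and 1126. Of the 12 listed genes of this group 9 were named. On E60 versus E40, 2 of 5 with a measurable difference were higher and none was lower, beside 4.49% and 7.3% of all named genes, with a median log2 difference of 0.32, against 0.00 over all named genes.

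**Figure D2:**
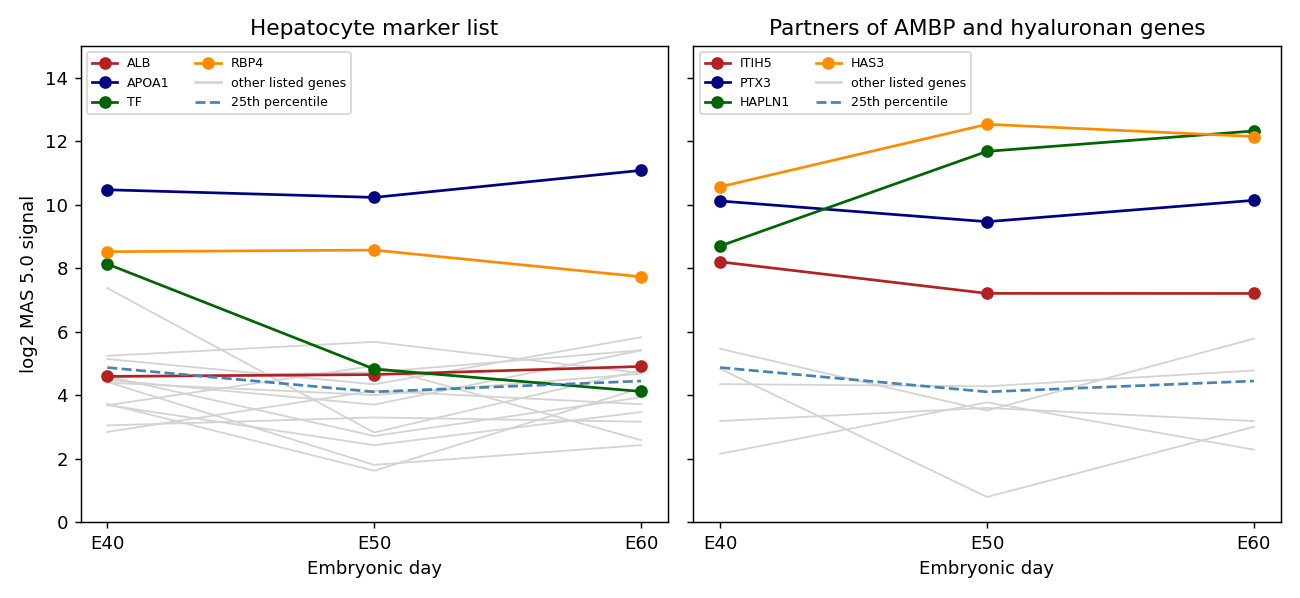
Log2 signal (vertical axis) by stage (horizontal axis, 1 array a stage) for the hepatocyte markers, left, and the AMBP partners with hyaluronan genes, right; lines join the values of a gene's brightest probe set, 4 genes a panel are coloured and the rest grey, and dashes mark the 25th percentile. On the left, ALB stays near the percentile on all arrays and APOA1 lies far above it. On the right, HAPLN1 and HAS3 are higher on E50 than on E40.

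The course of the 4 genes was set beside that of enamel secretion. AMBN, the gene of the matrix protein ameloblastin, had 61.1% of its log2 difference between E60 and E40 in place on E50, AMELX, the gene of amelogenin, 68.1% and MMP20 30.0%. No share on the log2 scale is given for ENAM, the gene of enamelin, which was under the floor on E40 and below the E40 floor on E50. A2M had 39.95% in place on E50 and WFDC1 38.8% on its brightest probe set, both between MMP20 and AMBN. SERPINA1, with 107%, and AMBP, with 82.5%, lay above all 3 enamel genes. The values of AMBP and AMELX depend on the floor, since their E40 signals were under it. On the linear scale, the E40 signals of AMBP, AMELX and ENAM were taken as read, though under the floor. By E50 A2M had made 9.26% of its gain in signal, WFDC1 23.7%, AMBP 70.5% and SERPINA1 119%. For AMBN it was 8.75%, for AMELX 13.0%, for MMP20 2.98% and for ENAM 0.19%. On this scale A2M lay among the enamel genes, and WFDC1, AMBP and SERPINA1 lay above them. At the first step A2M (2.05 on the log2 scale) and MMP20 (2.0048) differed by a similar amount, and at the second MMP20 differed by more (4.67, against 3.07 for A2M). With 1 array per stage, none of these contrasts could be tested, and 3 stages cannot tell a shared course from a coincident one. Signals of the enamel genes were 59.8, 2675 and 29942 for AMBN, 22.0, 2218 and 16881.4 for AMELX, 13.1, 26.1 and 6972 for ENAM, 53.0, 212.6 and 5407 for MMP20 and 33.0, 20.2 and 42.3 for TUFT1, a protein of early enamel. On E60 versus E50, 5 of 5 measurable enamel genes were higher, beside 4.41% of all named genes, and 4 of 5 with equal medians, quantile normalization or a common floor. TUFT1 stood closest to the limit, at 2.09-fold. KLK4 stood at 75.1 on E40 and under the floor on E50 and E60 (10.4 and 6.98). Among 10 named genes of dentin and bone matrix, 5 of 9 measurable ones were higher and none was lower on E60 versus E50. On E60 versus E40, 3 of 9 were higher and 1 was lower, beside 4.49% and 7.3% of all named genes. DSPP, of odontoblasts, stood at 3.60, 80.3 and 4195, BGN at 2058, 1875 and 5153, SPARC at 20266.1, 15964.7 and 21697.6 and SPP1 at 6186, 4539 and 5664.

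**Figure D3:**
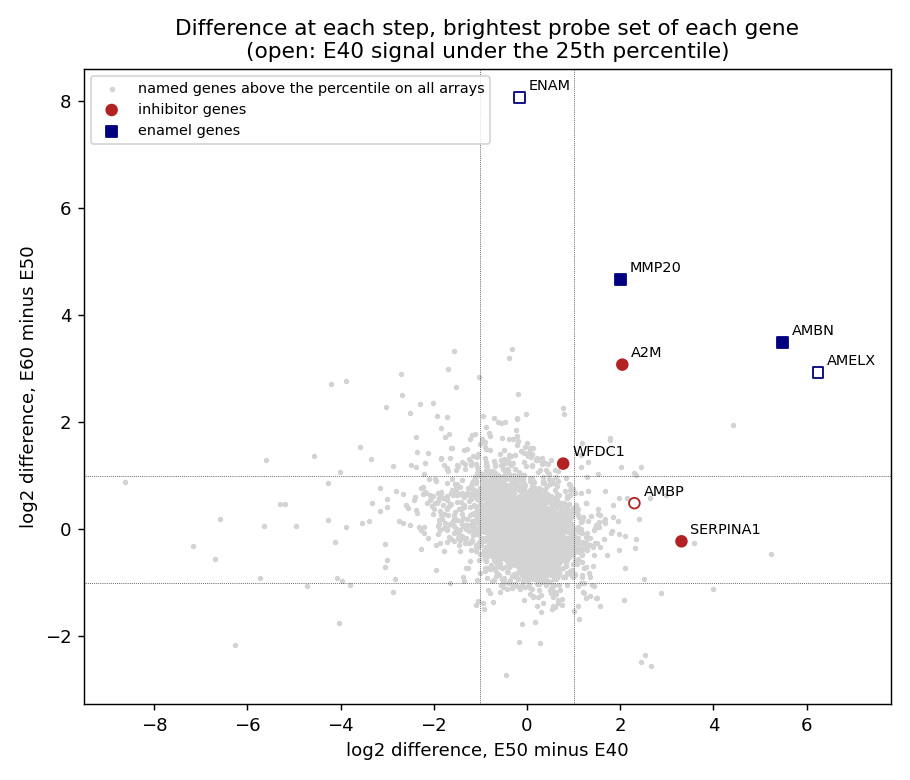
Log2 difference at the second step, E60 minus E50 (vertical axis), against that at the first, E50 minus E40 (horizontal axis), for the brightest probe set of each named gene; red circles are the 4 inhibitor genes, blue squares 4 enamel genes, open symbols have an E40 signal under the 25th percentile, and dotted lines mark 2-fold. A2M (2.05 and 3.07) lies toward the enamel genes, whereas SERPINA1 (3.31 and -0.22) and AMBP lie along the first step.

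The genes most like each of the 4 were sought by the distance between the log2 differences at both steps, over 3 arrays, among 5742 named genes above the floor on each. A2M had no close match: the nearest were UCP2, a mitochondrial uncoupling protein (distance 1.39), and RTN1, a reticulon of the endoplasmic reticulum (1.42), followed by C17H8orf4 (1.51), UBE2QL1 (1.55) and MMP20 (1.59). UCP2 stood at 30.2, 104.5 and 341.1. SERPINA1 was nearest to CBR1, a carbonyl reductase (distance 0.28; 30.6, 369.65 and 311.1), then to HAPLN1 (0.93), ACTG2, a smooth muscle actin (0.98), DPT, the matrix protein dermatopontin (1.01), and HSD11B2, which inactivates cortisol (1.01). WFDC1 was nearest to MGLL, a lipase of monoacylglycerols (0.18), then to LOC100154873 (0.20), HS3ST3A1, a sulfotransferase of heparan sulfate (0.27), QPCT, a glutaminyl cyclase (0.28), and REC114 (0.29). For AMBP, whose first step is only a bound, the search set its E40 signal at the floor and took in 6024 genes, some of them under the floor on E40 as well. It returned ALPL, the alkaline phosphatase of mineralising tissue (875.3, 3847 and 5749.7), DPT (797.8, 4205 and 4818), CYCS, cytochrome c, MRAP2 and SPACA9, and without a floor the first step of AMBP was 4.68 on the log2 scale, against 2.14 for ALPL, so these genes are not ranked. The E40 signals of UCP2 (30.2) and CBR1 (30.6) lay just above the E40 floor of 29.3, so their first steps rest on barely measurable signals. All these distances describe 3 arrays and carry no test.

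Most other genes of the inhibitor families were not called higher on E60 than on E40. In 6 families, 80 further genes were listed and 40 of them named on the array. They include relatives that do not inhibit proteases, such as the complement genes C3, C4A and C5. Of 35 with a measurable difference on E60 versus E40, 4 were higher (11.4%), 9 lower (25.7%) and 22 within 2-fold, where 4.49% and 7.3% of all named genes were higher and lower. Their median log2 difference was 0.02, against 0.00 over all named genes. On E50 versus E40, 2 of 34 were higher and 8 lower, beside 2.79% and 8.14% of all named genes. On E60 versus E50, 3 of 33 were higher and 2 lower, beside 4.41% and 1.76%. These counts depend on the scaling, here shown by family with the 4 genes included. With equal medians, 2 of 11 serpins were lower on E60 versus E40, not 3, and 1 of 4 WAP genes, not 2. On E50 versus E40, 3 of 10 Kunitz and Kazal genes were then higher, not 1. After quantile normalization, 3 serpins were still lower on E60 versus E40, and 2 Kunitz and Kazal genes were, not 1.

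Among the serpins other than SERPINA1, 10 of 13 named genes had a measurable difference on E60 versus E40, with 3 higher and 3 lower. SERPINF1, which encodes the antiangiogenic factor PEDF, was bright on every array (3624, 4627 and 11100.7), with the E60 signal 2.40-fold that of E50. SERPINI1, neuroserpin, which inhibits tissue plasminogen activator, stood at 371.3, 1165 and 1033, with its difference at the first step, as for SERPINA1. SERPINB2, the inhibitor of plasminogen activators PAI-2, stood at 35.4, 98.9 and 104.8. SERPINB11 was far lower on the later arrays (1330.25, 78.5 and 41.6), and SERPINB1, an inhibitor of neutrophil proteases inside cells, stood at 1240.3, 807.7 and 521.5. AGT, the angiotensin precursor, stood at 122.3 on E40 and under the floor afterwards. SERPINH1, the collagen chaperone HSP47 (4095, 4016 and 5105), and SERPING1, the inhibitor of complement C1 (3388, 3827 and 3827), stayed within 2-fold.

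No other WAP gene was called higher in any pair. WFDC2, expressed in many epithelia, stood at 1061, 1530.4 and 547.3 and was 2.80-fold lower on E60 than on E50. SLPI, the secretory leukocyte protease inhibitor, stood at 188.2, 74.1 and 66.1, and WFDC3 at 141.7, 85.9 and 60.3. PI3, the gene of elafin, lay close to or under the floor (9.26, 18.9 and 17.1). On E60 versus E40, WFDC3 and SLPI were lower and none of the 3 measurable genes other than WFDC1 was higher. With the arrays at equal medians or quantile normalized, the list of 5 named WAP genes held 1 higher and 1 lower gene, not 1 higher and 2 lower.

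Beside AMBP, the Kunitz and Kazal genes stayed mostly within 2-fold. TFPI, the inhibitor of the tissue factor pathway, stood at 132.6, 205.5 and 302.8, and was 2.28-fold higher on E60 than on E40. SPINT2, an inhibitor of epithelial serine proteases, stood at 2344, 3227 and 2698, its relative SPINT1 at 235.4, 361.3 and 287.5, and APP, the amyloid precursor with a Kunitz domain in some forms, at 13645.9, 12577.6 and 13544.8. FST, follistatin, with Kazal-like domains, stood at 2225, 1277 and 1152, and SPINK4 at 279.1, 246.0 and 426.0. SPINK5, an inhibitor of the kallikreins of the skin barrier, stood at 308.5 on E40 and under the floor on E50 and E60. Of the 9 measurable genes other than AMBP, 1 was higher and 1 lower on E60 versus E40. In the remaining families, CST6 of keratinised epithelium was lower at both steps (1783, 109.1 and 32.4), CST3, cystatin C, stood at 1506, 1473 and 1765, CSTB at 5137, 3584 and 2689.8 and TIMP1, an inhibitor of metalloproteinases, at 3282, 3671 and 5924. TIMP2 (3902, 2951 and 2821) and TIMP3 (144.3, 100.9 and 79.2) also stayed within 2-fold. Of the relatives of A2M, C3 stood at 171.6, 147.4 and 169.7, and C4A and C5 were lower on E60 than on E40.

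**Figure D4:**
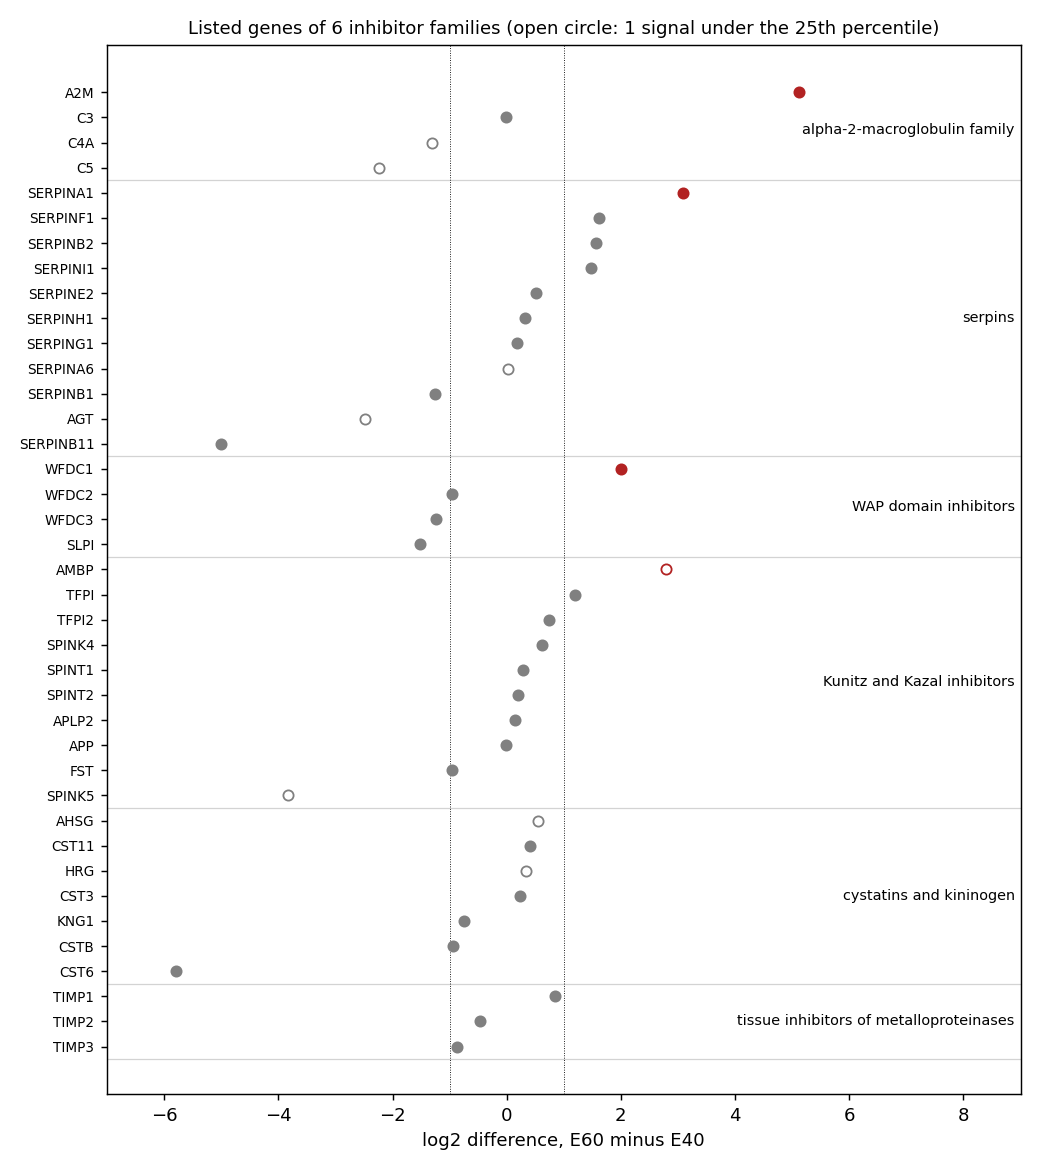
Log2 difference between E60 and E40 (horizontal axis) of the listed genes of 6 inhibitor families that had a measurable difference (vertical axis, ordered within each family); red circles are the 4 inhibitor genes of the report, grey circles the 35 others, open circles have 1 signal under the 25th percentile and mark bounds, and dotted lines mark 2-fold. A2M is at 5.12 and SERPINA1 at 3.09, and 22 of the others lie between the dotted lines.

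Several serine proteases known as targets of these inhibitors gave no measurable RNA signal. Whether they were present as protein, made here or elsewhere, was not tested. The list held no metalloproteinase, and MMP20, at 5407 on E60, stands with the enamel genes above. ELANE and PRTN3, the neutrophil elastase and proteinase 3 genes, were under the floor on all 3 arrays, as were PLG, plasminogen, and KLKB1, plasma kallikrein. PLAU and PLAT, the plasminogen activators, stood at 375.1, 246.9 and 235.9 and at 351.4, 176.3 and 240.2. HTRA1, a secreted serine protease, was bright throughout (3138, 3845 and 3628), and PRSS23, also a secreted serine protease, stood at 1255, 2433 and 2545 and was 2.03-fold higher on E60 than on E40. F3, tissue factor, stood at 1053, 267.2 and 509.5, and F2R, a receptor cleaved by thrombin, at 325.0, 151.0 and 292.4. Of 15 named genes of proteases and receptors 11 had a measurable difference on E60 versus E40, of which 1 was higher and 3 were lower, beside 4.49% and 7.3% of all named genes, and the median log2 difference was -0.67. With equal medians it was 1 higher and 1 lower, and after quantile normalization none higher and 2 lower.

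Because the liver makes A2M, SERPINA1 and AMBP, markers of hepatocytes were read on the same arrays. Of 17 named hepatocyte genes, AFP, APOA2, APOB, APOH and TTR were under the floor on all 3 arrays, and ALB, the albumin gene, stood at 24.1, 25.1 and 30.0, under the floor on E40 and close above it afterwards. The 17 genes summed to a signal of 2497, 1845 and 2724. Most of it came from APOA1 (1419, 1200.8 and 2165), and with APOA1 the sum was highest on E60. APOA1 was set aside with its values known, and the remaining sum was 1078, 644.3 and 559.5, highest on E40. Most of that E40 sum came from RBP4, TF and CPS1. RBP4 stood at 367.1, 380.3 and 212.4, TF, transferrin, at 280.6, 28.4 and 17.4, the last under the floor, and FGB, a fibrinogen chain, at 37.8, 51.3 and 26.0. CPS1, of the urea cycle, stood at 165.9, 7.09 and 27.6, under the floor on E50. On E50 versus E40 none of 7 measurable genes was higher and 2 were lower, beside 2.79% and 8.14% of all named genes. After quantile normalization 1 of 10 was higher and 2 were lower at that step. On E60 versus E40 none of the 9 measurable genes was higher and 2, TF and CPS1, were lower, beside 4.49% and 7.3% of all named genes, and after quantile normalization 1 was higher. On E60 versus E50, 2 of 11 were higher and none was lower, beside 4.41% and 1.76% of all named genes. The higher ones were HP, haptoglobin, at 35.3, 20.3 and 56.8, and HPX, hemopexin, at 22.4, 13.0 and 42.6, the first 2 under the floor. With a common floor none of 8 measurable genes was higher or lower on E60 versus E50. After quantile normalization 1 of 12 was higher and 1 lower. The acute phase list, of genes that the liver and other tissues raise in inflammation, had 9 measurable genes on E60 versus E40. None was higher and 2 were lower, beside 4.49% and 7.3% of all named genes. The lower ones were ORM1 (315.9, 44.7 and 72.9) and CEBPD (694.3, 184.6 and 267.4). With equal medians 1 gene of this list was higher on E60 versus E40 and after quantile normalization 2 were, and HP was higher on E60 versus E50. Its brightest members, SAA2 (3788, 4151 and 2592), STAT3 (1019, 1245 and 1285), PTX3 and CEBPB (357.7, 555.4 and 665.2), stayed within 2-fold.

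Markers of other cell types were read in the same way. The 10 endothelial genes summed to 3437, 1984 and 2936, with CDH5, a cadherin of endothelium, at 1070.5, 502.4 and 788.1, PECAM1 at 1048, 529.3 and 902.5, CLDN5 at 339.4, 328.9 and 417.2 and ESAM at 200.8, 136.8 and 153.2. CDH5, TEK (210.0, 81.7 and 226.6) and TIE1 (206.2, 77.2 and 100.4) were lower on E50 than on E40, and TEK was higher on E60 than on E50. The lower ones were 3 of 9 measurable endothelial genes, beside 8.14% of all named genes. With equal medians or quantile normalization 1 of 9 was lower on E50 versus E40, and with housekeeping scaling 5 were. The 9 macrophage and granulocyte genes summed to 1000.7, 822.9 and 1159, with AIF1, of macrophages, at 309.7, 447.3 and 609.0, MRC1 at 219.9, 131.8 and 141.4, CD163 at 138.5, 75.4 and 108.5 and S100A9, of granulocytes, at 100.05, 86.6 and 98.9. TYROBP, an adaptor of myeloid receptors, stood at 100.7, 8.48 and 103.5, under the floor on E50. The E50 signal was at least 5.85-fold lower than that of E40, and the E60 signal at least 6.01-fold higher than that of E50. S100A12 stood at 62.1, 15.9 and 32.8 and was lower on E50 than on E40. The 4 erythroid genes summed to 2367, 1987 and 2628, of which HBB, a globin, gave 2038, 1759 and 2341. Genes of the secretory pathway, which any cell that exports protein uses, stayed within 2-fold in every pair for all 17 named genes. SSR4, a part of the protein channel of the endoplasmic reticulum, stood at 10399.4, 12233.5 and 12344.8, HSPA5, a chaperone there, at 8905, 7882 and 8019, SPCS1 at 6447, 7729 and 8297 and PDIA6 at 7864, 7587 and 6541. The list's median log2 difference on E60 versus E40 was 0.25. With equal medians it was 0.56, and 1 gene of the list was higher by over 2-fold. The part of each cell type in the differences was not tested.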

How the data were processed

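The authors hybridised 1 Affymetrix Porcine Genome Array per stage and computed MAS 5.0 signals in GeneSpring. They deposited log2 values, which were used as deposited. MAS5 is also the tool the submitters' notes name. Of 24123 probe sets, 124 controls were left out. The platform's annotation gave 1 gene symbol to 10069 probe sets, several to 198 and none to 13732. Gene IDs of 9961 with 1 symbol were found in the RefSeq annotation, and 0 symbols had to be updated.

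A signal under its array's 25th percentile was raised to it. A fold with 1 raised signal is a bound, and none is given with both raised or where the raised signal passes the other. Calls took over 2-fold. Each gene of the 19 lists (269 genes) is represented by its brightest probe set, by mean log2 signal. With 1 array per stage no test was run and precision is limited by the number of arrays, so the gap between probe sets of a gene is the only check.

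Members and lists were chosen with earlier results of these data known. Named are all probe sets of the 4 genes, in each list the 4 brightest genes and those over 2-fold the same way at both steps, the 5 nearest genes in pattern and the enamel genes. Any other gene was named with its values known. Protein and promoter sequences were not analysed here. Tried as alternatives were a floor left out, set at the 50th percentile or common to the arrays, equal medians, quantile normalization, housekeeping scaling, a 3-fold threshold and the mean over probe sets. Python 3.11.15, numpy 2.4.6 and pandas 2.3.3 were used.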

Additional observations from a re-analysis of the deposited data

How the results depend on the processing

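No paired analysis was possible because each stage has 1 array. Direction was compared only for the probe sets of the 4 genes and for list medians. None of these that was over 2-fold changed sign. Equal medians and housekeeping scaling shift all differences of a pair alike by less than 2-fold, so they could hardly have reversed one. List medians near 0 could change sign, such as that of the WAP genes on E50 versus E40 (-0.10 as reported, 0.29 with equal medians, 0.12 after quantile normalization). Of 83 alternative values for the brightest probe sets of the 4 genes, 75 stayed within 1.5-fold of the value reported and 8 did not. Many of these could not differ, so the count overstates how stable the values are. A changed floor leaves a signal above it untouched. SERPINA1 and AMBP have 1 probe set each, so the mean over probe sets leaves them as they are. Without a floor, AMBP differed from E40 by 4.68 (log2) on E50 and by 5.16 on E60. With the floor at the 50th percentile, AMBP had no value on E50 versus E40 and kept a bound of 0.31 on E60 versus E40. A2M then had bounds of 0.61 at the first step, no longer over 2-fold, and 3.68 over both. As the mean over its 3 probe sets, A2M had 0.42 at the first step, 1.15 at the second and 1.57 over both. SERPINA1 ranged over 3.18 to 3.70, -0.30 to -0.08 and 3.09 to 3.40 at the first step, the second and over both.

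Counts of higher probe sets, in that order, were 477, 1184 and 840 as reported. They were 1555, 3245 and 2172 without a floor, 262, 330 and 469 with the 50th percentile, and 126, 306 and 277 at 3-fold. They were 1455, 985 and 1628 with equal medians and 1209, 745 and 1477 after quantile normalization. Higher calls were 14.3%, 77.2% and 26.4% of all calls as reported, 44.6%, 68.9% and 52.6% with equal medians, 42.5%, 59.5% and 47.5% after quantile normalization and 9.06%, 88.6% and 27.6% with housekeeping scaling. The median of all probe sets was -0.11, 0.02 and -0.11 as reported, 0.27, -0.05 and 0.20 with equal medians and -0.24, 0.18 and -0.09 with housekeeping scaling. The cause was not tested.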
